A study of Solenopsis invicta with 3 samples.

Results

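Outside the annotated genes of the fire ant *Solenopsis invicta*, the transcript models assembled from worker antennae held 21446 transcripts that consist of a single exon and are coded as intergenic. They are the models with exactly 1 exon and class code u, the code that Cuffcompare gives to a transcript lying apart from every reference gene. They made up 37.4% of all 57377 models in the deposited file, which also holds models taken over from the reference. No expression value entered their choice, and none is attached to them. The models pool 3 libraries of antennal RNA of adult workers, 1 for each worker class. P_Bb held heterozygous *SB/Sb* workers from polygyne colonies (those with several queens), P_BB held *SB/SB* workers from colonies of the same kind, and M_BB held *SB/SB* workers from monogyne colonies, which have a single queen. *SB* and *Sb* are the variants of the social supergene, and each library was a mixture of separately amplified cDNA from several colonies. Because the models are shared by all classes, no class could be compared with another, and every value below describes a single model set that has no replicate. The counts are complete over that set, so they carry no sampling error, but neither do they show how far a second assembly would differ. No test was made, since transcripts of a single assembly are not replicates.

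Genomes are transcribed well beyond their annotated genes. Single-exon RNA between genes can belong to long noncoding RNA genes, to transposable elements, which in insects are often transcribed from dispersed copies, to untranslated ends of genes whose annotation stops short, or to introns of transcripts that are still being processed. Cufflinks joins overlapping reads into a model, and reads that cross a splice junction tell it the strand. A model without an intron has no such reads, so its strand can be unknown. The reference here was a set of gene models with SINV names on the Si_gnH assembly, and a transcript that matched a reference model carried the class code =. Of the 18386 class = transcripts, 16521 were reference models under their own SINV names and 1865 were assembled from reads. Class = values below thus describe mostly the annotation.

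By the rule of choice, the exon number set these models apart from the other class u models. Of the 24008 class u models, 89.3% had 1 exon and 2562 had 2 or more. Among single-exon models of any class, 80.4% were members, and among the 18386 class = transcripts 5014 (27.3%) had a single exon. As the class code u implies, all 21446 members were assembled by Cufflinks and none carried a reference gene name (0 members). The members fell into 21239 loci, which were 57.2% of the 37105 loci in the file. A single transcript made up 20467 of these loci (96.4%). At most 5 members shared a locus, as in XLOC_013915 on scaffold00030 (1688287 to 1736384, plus strand), whose 8 transcripts also included models of class = and o. XLOC_004616 (4814473 to 4818737) and XLOC_004627 (4911383 to 4916815), both on scaffold00002 and without strand, held 4 members each and no other transcript. In each of them 3 members lay inside the longest one, of 4265 bases in the former and 5433 bases in the latter. XLOC_013399 on scaffold00028 (minus strand) also held 4 members, among 17 transcripts of class =, j, o and u. The deposited models marked 124 members in all as contained in another transcript.

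Members were of middling length, shorter than the spliced class u models and longer than most single-exon reference models. The median was 1230 bases, and the 25th and 75th percentiles were 854 and 1913 bases. Lengths under 500 bases were found in 4.74% of the members, 500 to under 1000 bases in 30.5%, 1000 to under 2000 bases in 41.7%, 2000 to under 5000 bases in 19.5% and 5000 bases or more in 3.61%. Class u models with 2 exons, those just outside the exon limit, had a median of 1571 bases over 953 models, and all class u models with 2 or more exons had a median of 1844 bases. Single-exon class = transcripts had a median of 336 bases, and 66.6% of them were under 500 bases. The members together covered 35.8 Mb, against 22.3 Mb for the exons of class = transcripts. The latter value leaves out the other models at genes, such as the 12184 of class j (new splice forms, median 3800 bases). It is therefore not the extent of all transcripts at genes. TCONS_00000744 on contig23018 (934 to 2163), TCONS_00001988 on contig28430 (515 to 1744) and TCONS_00005830 on scaffold00002 (4846168 to 4847397), all without strand, had the median length. The shortest member was TCONS_00003597 on contig74174 (39 to 212), with 174 bases, and it was the only member under 200 bases.

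**Figure D1:**
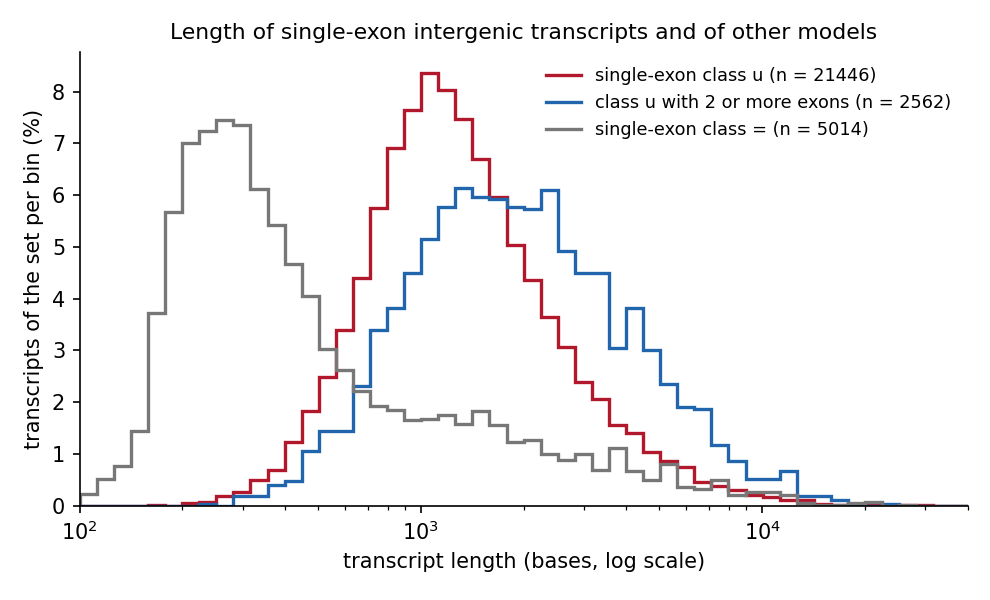
Length of models in bases (log scale) against the percent of each set per bin, for the 21446 members, the 2562 class u models with 2 or more exons and the 5014 single-exon class = transcripts. The members peak between the other sets, with medians of 1230, 1844 and 336 bases in that order.

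The 2 longest members lay close together on the same scaffold, and the third on another. TCONS_00024885 (scaffold00041, 538151 to 568986, minus strand) spanned 30836 bases without an intron, and TCONS_00024871 (scaffold00041, 451687 to 480439, minus strand) spanned 28753 bases. TCONS_00035347 (scaffold00100, 361518 to 389683, no strand) spanned 28166 bases and lay within an intron of a model of another class. At least 10000 bases long were 116 members on 72 scaffolds or contigs, and 10 of these 116 were on scaffold00041. A strand was given for 42 of the 116.

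Most members had no strand. The strand was open for 19991 members (93.2%), while 702 were on the plus strand and 753 on the minus strand. Every class u model with 2 or more exons had a strand (0 of 2562 without). So did every single-exon class = transcript (0 of 5014 without), but most class = transcripts were reference models, whose strand need not come from reads. The 1455 members with a strand were longer, with a median of 1893 bases against 1201 bases for those without, and 13.1% of them were 5000 bases or longer against 2.92%. Many of them shared a locus with other models: 388 with a spliced class u model, 466 with a model of another class, and 52.3% with either. None of the members without strand did (0 of 19991). Whether the merging of models could place a member without strand in such a locus was not tested, so this is not read as a difference. Among stranded members beside a reference transcript that they did not overlap, 851 of 1401 (60.7%) were on that transcript's strand.

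Some of the stranded members stood in long stretches of the same strand. They occurred on 380 scaffolds or contigs, but 13 scaffolds with at least 20 of them held 28.3% of all stranded members, against 6.84% of all members. On these 13 scaffolds, 376 of 412 stranded members (91.3%) were on the strand that prevailed there. Over the whole set, 602 pairs of neighbouring members both had a strand, and in 567 of them (94.2%) the strand was the same. In 1467 other pairs only 1 of the neighbours had a strand. On scaffold00224, 44 of the 45 members were on the minus strand, and they followed each other from base 45291 to base 281517 without a member of another strand between them. Together they filled 58.1% of that stretch. On scaffold00041, 69 members were on the minus strand and 1 on the plus strand. A stretch of 26 minus-strand members from base 443604 to base 622694 there filled 86.0% of 179091 bases, and after a single member without strand a further stretch of 25 ran from base 623952 to base 808283. All members of both stretches were clear of models of other classes, and the longest and second longest members belong to the former. On scaffold00058 (499113 to 667682), 17 consecutive plus-strand members filled 63.0%, and on scaffold00081 (344656 to 424748) another 17 filled 65.9%. On scaffold00173 all 24 stranded members were on the plus strand, but they filled only 9.39% of the 413587 bases between the first and the last. There were 16 stretches of at least 10 members, which held 277 members (19.0% of the stranded ones). These scaffolds and stretches were picked after their values were seen.

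The members were spread over much of the assembly, on 2988 of its 4321 scaffolds and contigs with any model (69.2%). A single member was present on 2253 of them (75.4%). The 10 scaffolds with most members held 13.9% of the members and 11.8% of the class = transcripts. Scaffold00002 held 444 members and 348 class = transcripts, scaffold00001 held 360 and 329, and scaffold00004 held 307 and 175. On the 323 scaffolds and contigs with at least 10 class = transcripts and a member, which held 75.9% of the members, the number of members rose with that of class = transcripts (Spearman's rho 0.66 across scaffolds). Both numbers rose with the end position of the last model (rho 0.80 for members and 0.84 for class = transcripts). Scaffolds and contigs whose models reached farther thus had more of each. The density still differed widely between scaffolds. The median was 5.83 members per 100000 bases up to the last model, and the 25th and 75th percentiles were 3.41 and 8.07. Scaffold00255 had the highest density, with 55 members and 13 class = transcripts (20.5 members per 100000 bases), and scaffold00147 the lowest, with 1 member and 26 class = transcripts (0.206). Both were picked after their values were seen. More members than class = transcripts were found on 152 of the 323.

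**Figure D2:**
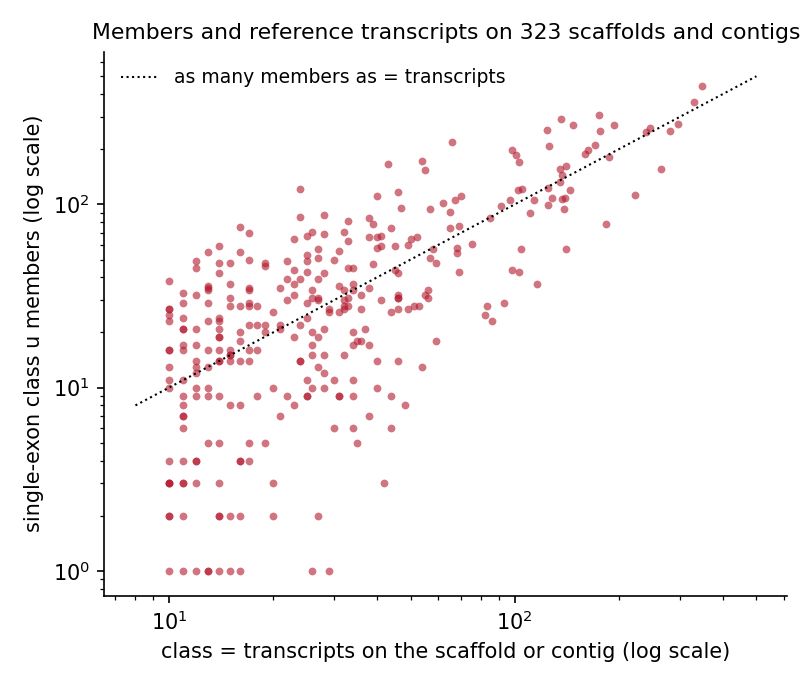
Class = transcripts (horizontal, log scale) and members (vertical, log scale) on each of the 323 scaffolds and contigs that hold at least 10 class = transcripts and a member; the dotted line marks equal numbers. Points lie on both sides of the line, with 152 of 323 above it.

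A part of the set lay on small pieces of the assembly that hold no reference gene. There, 2288 scaffolds and contigs without a class = transcript carried 2550 members (11.9%), and 2129 of these pieces had a single member. For 2210 pieces the members were the only models. Contigs carried 10.7% of the members, 16.9% of the spliced class u models and 4.02% of the class = transcripts. These 2550 members were shorter, with a median of 1053 bases, and 1274 of them began within the first 100 bases of their piece. Of all 21446 members, 1321 (6.16%) began there, against 0.479% of class = transcripts, and 133 began at the first base. The part of these piece ends in their length was not tested. Scaffold00841 held 11 members without any class = transcript, and scaffold00818 and scaffold00905 held 8 each.

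Where a class = transcript was present, members lay farther from it than the spliced class u models did. Models of other classes at genes do not count in this distance, although 8325 members lay in introns of models that carried a reference gene name. Against any transcript not of class u, the median distance of the members was 436 bases. The median distance from a member to the nearest class = transcript, edge to edge and on either strand, was 11531 bases over 18896 members, with 4598 and 27233 bases as the 25th and 75th percentiles. For class u models with 2 exons it was 4223 bases, and for those with 2 or more exons 3201 bases. Within 1000 bases lay 5.74% of the members, within 5000 bases 27.0%, within 10000 bases 45.5% and within 50000 bases 89.7%. For the spliced class u models 22.6% lay within 1000 bases and 60.3% within 5000 bases. The 3 closest members were TCONS_00052960 (scaffold00475, 113197 to 114996, plus strand) at 4 bases from SINV10571, TCONS_00023652 (scaffold00037, 308431 to 311856) at 6 bases from SINV13559, and TCONS_00047513 (scaffold00253, 243049 to 243700) at 6 bases from SINV21717, all upstream of that gene. The farthest was TCONS_00018525 (scaffold00024, 830256 to 831228), at 264456 bases from SINV11477. Its neighbours TCONS_00018524 and TCONS_00018523 came next, at 261681 and 255711 bases. An actual overlap with a class = transcript was found for 6 members, all with a strand, from TCONS_00032655 with 661 bases to TCONS_00028817 with 5716 bases; these were named after their values were seen, as was the shortest member.

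Length hardly moved with distance, while strand did. The median length was 1246 bases under 1000 bases from a class = transcript, 1178 bases from 1000 to under 2000 bases and 1246 bases at 50000 bases or more. A strand was given for 16.4% of the members closer than 1000 bases, for 7.57% of those at 5000 to under 10000 bases and for 3.87% of those at 50000 bases or more.

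On the downstream side of genes, members were few up to 2000 bases and appeared at once beyond it. At less than 2000 bases, 1643 members lay upstream of the nearest class = transcript and 251 downstream (86.7% upstream). From 2000 to under 5000 bases, 1737 lay upstream and 1460 downstream (54.3% upstream). In bins of 200 bases, the downstream side held 14 to 49 members per bin below 2000 bases and 84 to 128 from 2000 to under 4000 bases. The upstream side held 129 to 209 and 83 to 143 in the same ranges, with no such step. Spliced class u models were about even on both sides, with 395 upstream and 386 downstream under 2000 bases, and 224 and 230 from 2000 to under 5000 bases. Stranded members were less one-sided than those without strand under 2000 bases, at 76.6% against 88.6% upstream. Cuffcompare has a code p for fragments up to 2000 bases past a reference transcript, and the file held no transcript of that code (0 transcripts). The part of that code in the step was not tested. Beyond 2000 bases 56.6% of the members were upstream.

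**Figure D3:**
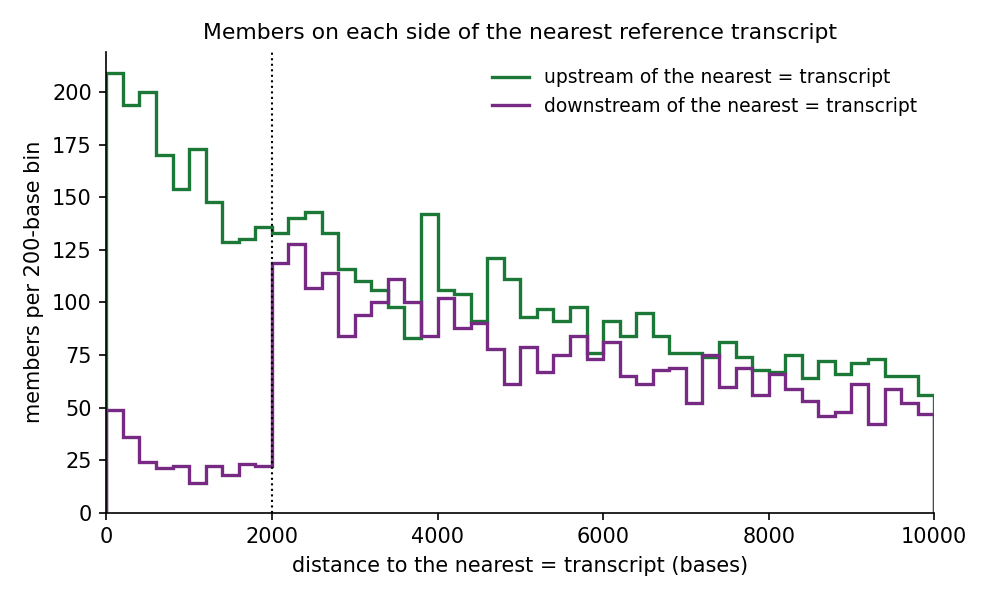
Members per 200-base bin by distance in bases from the nearest class = transcript, upstream and downstream of it by its strand; the dotted line marks 2000 bases. The downstream line stays between 14 and 49 members below 2000 bases and between 84 and 128 from there to under 4000 bases.

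Many members lay inside other models of the same assembly. A place between neighbouring class = transcripts was found for 17152 members, while 1738 lay before the first or after the last of their scaffold or contig, 2550 had none there and 6 overlapped one. The description as transcripts between known genes thus fits most members, but not in relation to all models. The span of a transcript of another class left 12551 members (58.5%) clear, while 8325 (38.8%) lay in an intron of such a transcript and 570 (2.66%) reached into an exon. The introns belonged to class j models, new splice forms that share a junction with a reference transcript, for 6517 of the 8325 members (78.3%), and to class o models, which overlap a reference exon in another way, for 2388 (28.7%). Class x models, which overlap a reference exon on the opposite strand, held 411 (4.94%) and class s models 5, and some members lay in introns of several classes. None lay in an intron of a class = transcript (0 members), and the code i, which Cuffcompare gives to models inside a reference intron, was carried by 1 transcript of the file. In an intron of a spliced class u model lay 1072 members, some of them also counted above. Clear of all spliced and other-class models were 11591 members (54.0%). Members without strand were in introns in 41.5% of cases, and members with a strand in 2.41%. An exon was reached by 39.2% of the latter and by none of the former (0 members). Whether the merging of models could leave a member without strand over an exon was not tested.

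Members in introns and members clear of other classes were alike in length, with medians of 1205 and 1229 bases. Their median distances to a class = transcript were 10920 and 12804 bases. They differed in side: 63.7% of the intron members lay upstream of the nearest class = transcript against 55.6% of the clear ones. From 2000 to under 5000 bases, the clear members were 47.3% upstream and the intron members 61.8%. The hosts of the intron members carried 1380 reference gene names, of which 394 hosted a single member and 281 hosted 10 or more. These counts overlap, since 1388 intron members had more than 1 named host and count under each name. Models named for SINV24913 (scaffold00004) hosted most, with 91 members between base 1754395 and base 2046482. None of the 91 had a strand, their median length was 966 bases, and their distances to a class = transcript ran from 580 to 74754 bases. SINV11561 (scaffold00111) hosted 83 members and SINV15195 (scaffold00104) hosted 82. The SINV names carry no description in the files, and these hosts were picked after their values were seen.

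Neighbouring members were often close, but hardly ever closer than 50 bases. Over 18458 pairs of neighbours on the same scaffold or contig, the median gap was 1834 bases, and the 25th and 75th percentiles were 544 and 6877 bases. A gap of up to 1000 bases, or an overlap, was found for 36.9% of the pairs. An overlap occurred in 129 pairs. Gaps of 0 to 50 bases occurred in 19 pairs, those over 50 and up to 100 bases in 643 and those over 100 and up to 150 bases in 673. The number then fell slowly, to 318 pairs over 450 and up to 500 bases. The part of the assembler, which joins reads into models, in the scarcity of gaps up to 50 bases was not tested. Chains of members with gaps of at most 1000 bases and clear of any other transcript numbered 1751, and they held 21.9% of the members. Most of them (1137) were pairs, and 129 had 5 or more members. The longest chains were on scaffold00019, with 16 members of 716 to 5321 bases between base 20386 and base 67054, on scaffold00178, with 16 members of 494 to 5060 bases between base 151447 and base 187938, and on scaffold00045, with 15 members of 586 to 12201 bases between base 1259040 and base 1320402. A continuous transcribed region that was assembled in pieces, and separate short transcripts, cannot be told apart from these models.

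**Figure D4:**
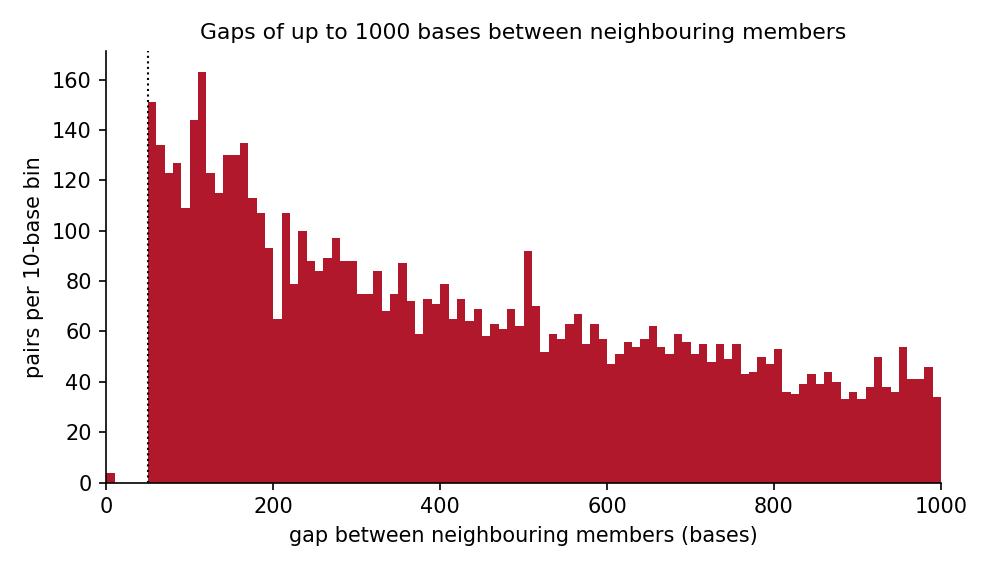
Gaps of 0 to 1000 bases between neighbouring members on the same scaffold or contig, in pairs per 10-base bin; the dotted line marks 50 bases. Nearly no pair lies left of it (19 pairs up to 50 bases), and 643 pairs lie over 50 and up to 100 bases.

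The wider the space between neighbouring class = transcripts, the more often it held a member. Merging overlapping class = transcripts left 14155 spaces between neighbours, and 3582 of them (25.3%) held 17152 members (80.0% of the set). Such a space can still hold models of other classes, and a member within it can lie in their introns. No space under 1000 bases held a member (0 of 1799). A member counted here lies whole within its space. These narrow spaces had a median width of 514 bases, against a median member length of 1230 bases, so by construction they had little room for one. Members were found in 3.32% of the spaces of 1000 to under 5000 bases, 22.9% of those of 5000 to under 10000 bases, 55.9% of those of 20000 to under 50000 bases and 72.1% of those of 100000 bases or more. The density rose with width as well, with 4.27 members per 100000 bases in spaces of 5000 to under 10000 bases, 7.75 in spaces of 20000 to under 50000 bases and 8.34 in spaces of 100000 bases or more. Leaving out the 2000 bases next to each class = transcript, these densities were 4.20, 8.04 and 8.43 in that order. In spaces of 50000 to under 100000 bases the density was then 7.90, so it was nearly level from 20000 bases upward. Members covered 12.2% of the bases of all spaces. Spaces between genes that face each other with their downstream ends had fewer members, 5.03 per 100000 bases, than spaces between upstream ends, with 7.68, or between genes in the same orientation, with 7.50. Without the 2000 bases next to each gene the densities were 6.08, 7.95 and 8.26 in that order. The spaces also differed in width, with medians of 4617, 7161.5 and 6650.5 bases in the same order. The part of width in these densities was not tested.

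**Figure D5:**
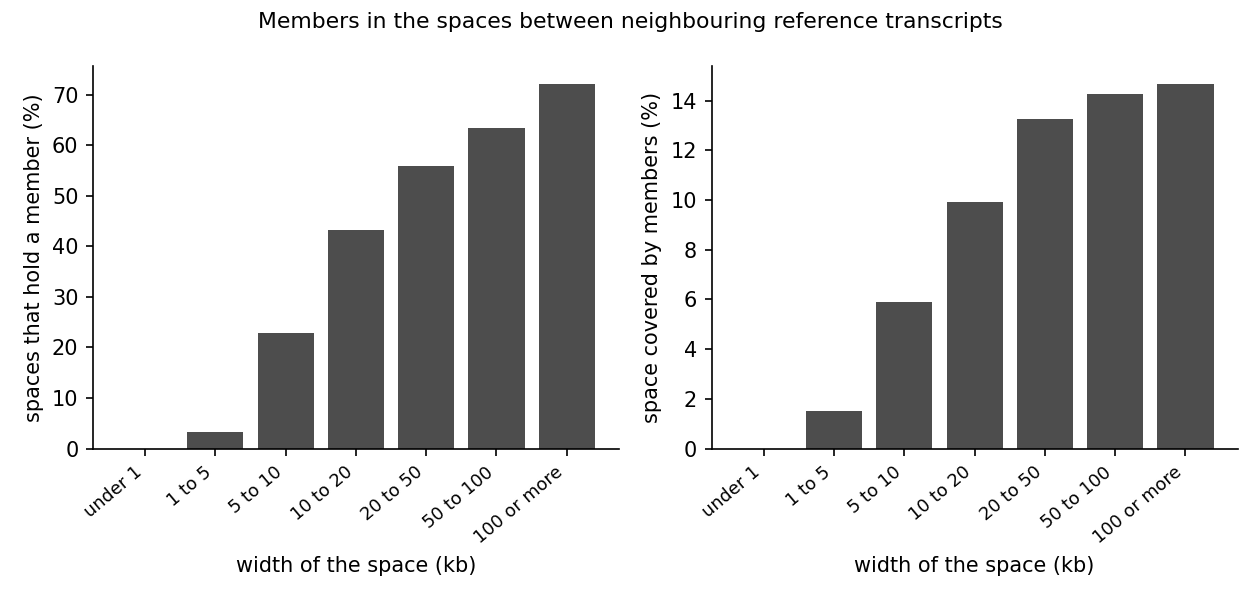
Spaces between neighbouring class = transcripts by width in kilobases: percent of the spaces that hold a member (left) and percent of their bases covered by members (right). No space under 1000 bases holds a member, and 72.1% of those of 100000 bases or more do.

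Wide spaces differed greatly in what they held. The widest space with a member was on scaffold00024 (565800 to 1408087), between SINV11477 and SINV21756, and its 842288 bases held 74 members that covered 15.8% of it. The next, on scaffold00020 (1061918 to 1611483) between SINV10890 and SINV10883, was 549566 bases wide and held 5 members, covering 0.977%. The third, on scaffold00115 (109619 to 542048) between SINV21192 and SINV21196, held 36 members. Another space with 74 members, on scaffold00040 (279869 to 608256) between SINV25992 and SINV26019, was 328388 bases wide and was covered to 36.5%. On scaffold00111 (215495 to 514470), between SINV11567 and SINV11572, 72 members covered 35.2% of 298976 bases. That space was not clear of other models. Introns of models named for SINV11561 held 83 members on this scaffold between base 147365 and base 494519, a range that overlaps the space.

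Members also differed between scaffolds in length, distance and place. On the 97 scaffolds with at least 50 members, the median length ran from 880 bases on scaffold00119 to 2036 bases on scaffold00200. Its 25th and 75th percentiles over these scaffolds were closer, at 1178 and 1367 bases. The median distance to a class = transcript ran from 4171 bases on scaffold00029 to 91469 bases on scaffold00049, with percentiles of 10243 and 20982 bases. The share of members in introns of other-class models ran from 0% on scaffold00049 to 100% on scaffold00140, with percentiles of 25.9% and 59.3%. The scaffolds at these ends were picked after their values were seen. Scaffold00042, on which the study places the odorant-binding protein gene *SiOBP12*, held 43 members of 376 to 5397 bases beside 103 class = transcripts. Their median length was 969 bases, 37 of them had no strand and 15 lay in introns, and their median distance was 26325 bases.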

How the data were processed

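The authors mapped antennal reads to the Si_gnH genome and assembled them with the Tuxedo tools. For a related set of separately sequenced libraries they used TopHat, Cufflinks and Cuffmerge; the versions behind the deposited pooled file are not given in the sources used here. That file gives exon positions, counted from 1 with both ends included, and no expression value. The identifiers could not be joined to the deposited expression tables: 1235 member loci had a number that also occurred there, and the length agreed for 0 members. Those tables were otherwise not used, and neither was the deposited list of EBSeq pattern names. The RefSeq table belongs to another assembly, so no sequence or gene description was taken from it.

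Members, distances, gaps and spaces were computed with Python 3.11.15 and pandas 2.3.3, and tested on simulated data. Distances run between nearest edges over whole transcript spans, introns included. Named items followed a rule: the 3 longest, closest, farthest and most typical members, and the 3 richest scaffolds, loci, chains and spaces; others are marked as picked later. The members and lists were chosen with earlier results of these data known. Alternatives changed the length minimum, the unit counted, the reference transcripts and the members used.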

Additional observations from a re-analysis of the deposited data

How the results depend on the processing

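No paired analysis was possible because all libraries were pooled into the same models, 1 library a class, and none can be left out. Of 44 alternatives, 24 left a count within 1.5 times or a value within its 95% binomial interval, and 20 did not. With members of at least 1000 bases the count was 13891 and 91.4% had no strand, by construction of the minimum for the count. With 1 member per locus 93.6% had no strand. Members clear of other-class models, an alternative chosen after seeing the data, numbered 12551, with a median distance of 12804 bases, 24.998% within 5000 bases and 44.4% downstream. On scaffolds and contigs with at least 10 class = transcripts the median length was 1257 bases and the median distance 11851 bases. Against class = transcripts with 2 or more exons only, the median distance was 17644 bases, 19.7% lay within 5000 bases, 39.1% were downstream and 12.7% had no such transcript on their piece. Against any transcript not of class u, the median distance was 436 bases, 63.5% lay within 5000 bases and 44.7% were downstream, since members in introns then count as overlapping. Class = transcripts on the member's own strand could be used only for the 1455 members with a strand. Their median distance was then 13149 bases, against 7265 bases on either strand. Within 5000 bases lay 26.4% of them, against 40.1% on either strand. Among the 44 alternatives both were set against the values of all members. The share downstream, 40.4% over all distances, was 33.6% within 5000 bases, 14.1% within 1000 bases and, chosen after seeing the data, 43.4% at 2000 bases or more. Where no construction of the alternative is given, the cause was not tested. The intervals served only as a yardstick, since the counts are complete, and they treat members as independent, which neighbours are not. They were narrow, as for the median length (1218 to 1243 bases), so small changes also fell outside them.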
